A study of Mus musculus with 10 samples.

Results

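The 43 genes described here copy DNA or prepare a cell to copy it. They were chosen by name as a set of DNA replication and S-phase genes, and all 43 were found among the 55421 gene identifiers of the count table. All 43 also had at least 10 counts over the 10 livers and so entered the tests, together with 22449 genes in all. RNA carrying a poly(A) tail was sequenced from whole livers of 10 male mice to ask how the transcriptome changes when hepatocytes lose the histone variant H3.3, which is encoded by H3f3a and H3f3b. All mice received an AAV8 virus into the retro-orbital sinus at 6 months of age, and livers were taken 3 weeks later.

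The H3.3 KO group (n = 4) consisted of C57BL/6 mice with both genes floxed (H3f3a fl/fl, H3f3b fl/fl), injected with AAV8 Tbg-Cre. One control group (n = 3), called WT Cre control here, was made of wildtype mice given the same Cre virus. The other (n = 3), called MCS control, had the floxed alleles of the KO mice but received AAV8 Tbg-MCS, which carries no Cre. Tbg is a promoter active in hepatocytes, so the other cells of the liver kept both genes while their RNA was part of every sample. Values within a group are listed in the order of replicate 1 to 3 or 1 to 4. The controls' columns were tied to the WT Cre and MCS groups through the library number alone, and results against the 6 pooled controls would be the same without it.

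In the KO livers, H3f3a was at 16.0 to 19.0 CPM (counts scaled to a common library total, with TMM factors that even out libraries of different composition) against 59.9 to 63.7 CPM in the controls. H3f3b was at 39.8 to 56.7 CPM against 136 to 204 CPM. One label field of the KO and MCS groups names HIRA as the floxed gene. Hira, which encodes a chaperone of H3.3, was at 6.26 to 6.68 CPM in KO and 5.48 to 8.71 CPM in the controls, and its difference did not pass the test (log2 fold change -0.14, SE 0.138, adjusted p = 0.477). KO 1 was the shallowest library, with 14998426 counts, and the other 9 held 20862860 to 26096141. KO 1 was also the lowest of the 4 KO livers in 26 of the 43 genes, and the highest in 11. Its rank over all genes was not counted. Its values stand beside the results below for these reasons.

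Before a cell divides, the origin recognition complex, CDC6 and CDT1 load rings of MCM2 to MCM7 onto DNA while the cell is in G1. Cyclin E with its kinase, and then the binding of CDC45, MCM10 and the GINS complex, turn the loaded rings into active helicases. DNA polymerase alpha with primase lays down primers, replication factor C loads the PCNA clamp, and FEN1 and DNA ligase I join the fragments of the lagging strand. CAF-1 and ASF1 place histones on the new DNA. Many of these genes are transcribed under E2F factors at the passage from G1 to S. Most hepatocytes of an adult liver are out of the cell cycle and re-enter it after injury or loss of tissue, while immune cells and other cells of the liver may cycle independently of them.

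Against the 6 pooled controls, 15 of the 43 genes rose in KO livers, 3 fell and 25 did not pass an adjusted p of 0.05. Over all 22449 genes tested, 19.7% were higher and 16.6% were lower, so the 34.9% of replication genes that were higher stood beside a background of 19.7%. The median log2 fold change was 0.21 over the 43 genes and -0.00299 over all genes. The study's methods also ask for an absolute log2 fold change over 1. With both thresholds, 8 of the 43 genes were higher and 1 was lower, against 12.9% and 5.79% of all genes. The 15 that rose were Orc1, Cdc6, Cdt1, Mcm2, Mcm3, Mcm5, Mcm6, Gins2, Pole2, Fen1, Lig1, Rrm2, Ccne2, E2f2 and Asf1b. The 3 that fell were Mcm7, Gins1 and Rpa2. In 10 genes every KO liver lay above every control (12.5% of all genes), in 2 every KO liver lay below (12% of all genes), and in 31 the groups overlapped. With KO 1 left out, 16 of the 43 genes were higher and 4 were lower, against 22% and 18.9% of all genes, and in 16 genes all of KO 2 to 4 lay above all controls (20.1% of all genes). When libraries were scaled by their size alone, the median of all genes moved up by 0.18, 19 of the 43 genes were higher and 1 was lower, and the background became 25.1% higher and 9.68% lower. With a stricter count filter (edgeR's filterByExpr), which drops Orc1, 17 of the replication genes were higher and 4 were lower. The background was then 24.5% higher and 21.9% lower over the 15486 genes kept.

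**Figure D1:**
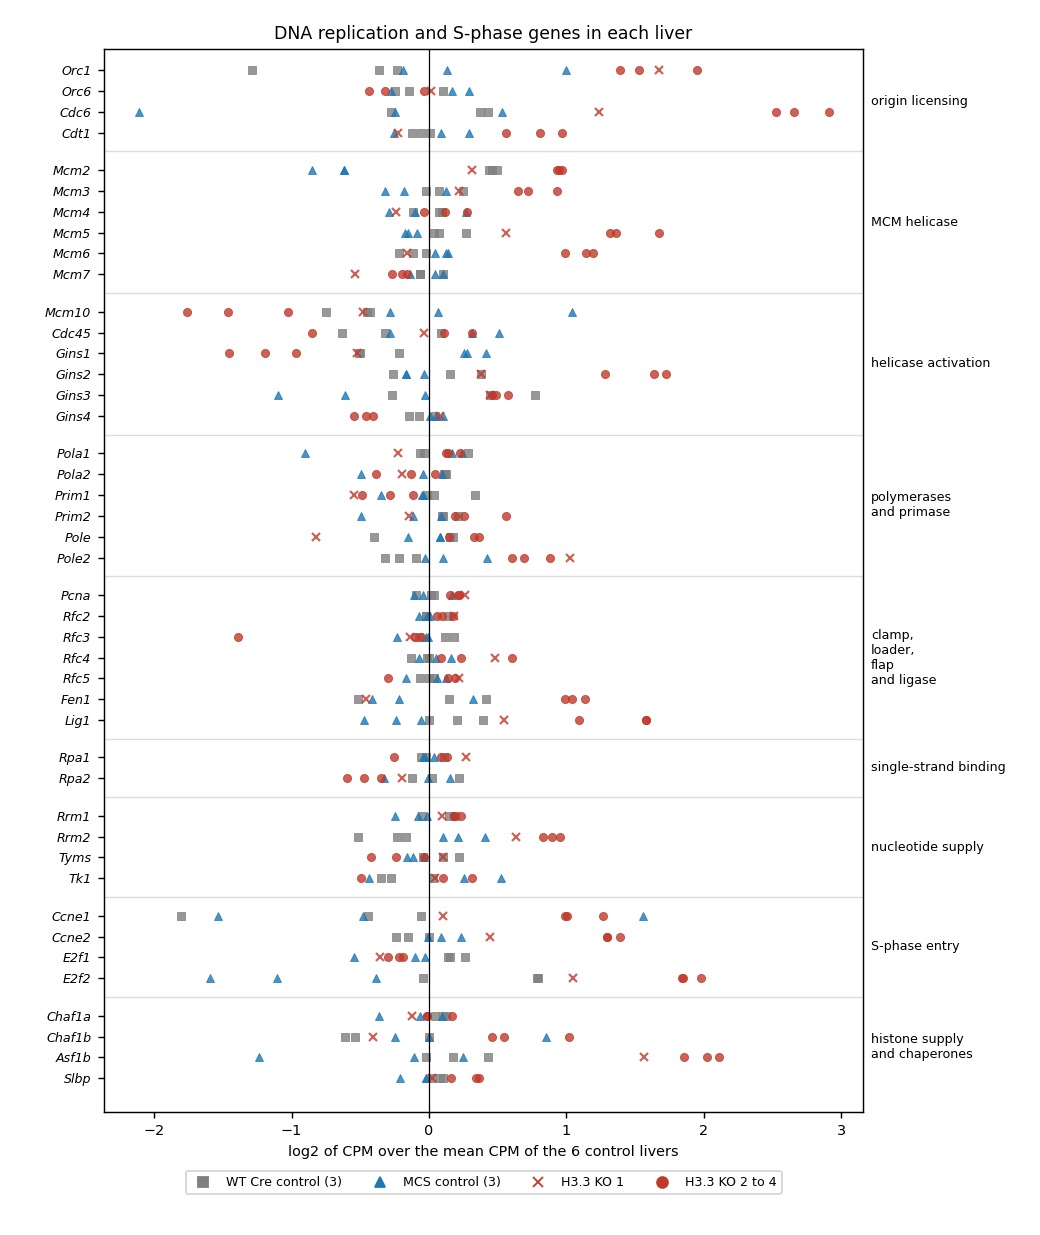
Level of each of the 43 genes in each of the 10 livers, as the log2 of its CPM over the mean CPM of the 6 control livers (x axis), with genes in rows by role. Squares and triangles are the control livers, circles KO 2 to 4 and the cross KO 1. In 10 genes all KO symbols lie to the right of all controls. KO 1 is the leftmost KO symbol in 26 genes and the rightmost in 11.

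Sequence upstream of the start site was available for 35 of the 43 genes in a RefSeq promoter table on GRCm38.p6, which gives 40 promoters of 300 bases (250 before the start and 50 after). These were searched on both strands for the E2F words TTTCCCGC, TTTCGCGC, TTTGCCGC and TTTGGCGC. At least one word was present in 13 of the 40 promoters (32.5%), against 3.45% of the 16756 promoters of genes tested and 2.26% of all 32851 promoters. Counted by gene, 9 of the 13 genes that rose and have a promoter in the table hold a word, and 4 of the 22 that did not rise do. Mcm6 holds 3 words, and Mcm5, Mcm3, Mcm7 and Rfc3 hold 2 each, of which Mcm6, Mcm5 and Mcm3 rose, Mcm7 fell and Rfc3 did not pass the test. The promoters of Mcm5, Mcm6 and Pola1 are printed as examples in which every word lies before the start, and Pola1, which did not pass the test, holds 1. Each is written 5′ to 3′ on the strand of the gene, with the E2F words in capitals. The Mcm5 stretch is chr8:75109331-75109392 on the plus strand (178 to 117 bases before the start), the Mcm6 stretch chr1:128359720-128359840 on the minus strand (135 to 15 bases before the start) and the Pola1 stretch chrX:93632261-93632318 on the minus strand (163 to 106 bases before the start). All of them lie upstream of the gene as annotated.
Mcm5: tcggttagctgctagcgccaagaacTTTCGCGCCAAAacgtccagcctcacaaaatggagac
Mcm6: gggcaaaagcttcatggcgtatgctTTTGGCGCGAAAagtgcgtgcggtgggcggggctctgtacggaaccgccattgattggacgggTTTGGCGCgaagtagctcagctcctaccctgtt
Pola1: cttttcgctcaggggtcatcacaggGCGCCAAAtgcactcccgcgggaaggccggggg
In Mcm5, and at the first place in Mcm6, a word on one strand overlaps a word on the other. Pola1 holds its word on the opposite strand. A word is a match of letters and was not measured as a bound site.

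Of the 4 genes that license origins, 3 rose. Cdc6, whose product recruits CDT1 and the MCM ring to the origin, had the largest fold change of the set. It was at 0.25, 0.26 and 0.159 CPM in the WT Cre control, at 0.163, 0.0446 and 0.279 CPM in the MCS control and at 0.456, 1.11, 1.22 and 1.45 CPM in KO. All 4 KO livers lay above all 6 controls, with KO 1 nearest to them (log2 fold change 2.47, SE 0.39, adjusted p = 0.00036). The raw counts behind these values were 1 to 6 per control liver and 7 to 38 per KO liver. Orc1, the largest subunit of the origin recognition complex, rested on 1 to 5 counts in controls and 5 to 10 in KO, and rose (log2 fold change 1.6, SE 0.404, adjusted p = 0.00761). On the deposited FPKM with 1 added, the fold change of Orc1 was -0.0152. Cdt1, the loader of the MCM ring, was at 2.18 to 3.18 CPM in controls and at 2.22, 3.84, 4.55 and 5.09 CPM in KO, so that KO 1 lay among the controls (log2 fold change 0.6, adjusted p = 0.0399). Its call was lost on leaving out any 1 of 8 of the 10 livers (all but MCS 1 and KO 1), with adjusted p up to 0.136. Orc6, a small subunit of the complex, was at 3.67, 4.34 and 3.41 CPM in the WT Cre control, 4.56, 4.96 and 3.35 CPM in the MCS control and 4.1, 3.95, 2.99 and 3.25 CPM in KO. Its groups overlapped, and it did not pass the test (log2 fold change -0.18, SE 0.169, adjusted p = 0.433).

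Of the 6 subunits of the MCM ring, 4 rose, 1 fell and 1 did not pass the test. Mcm5 was at 2.29, 2.0 and 1.95 CPM in the WT Cre control, 1.71, 1.79 and 1.68 CPM in the MCS control and 2.8, 4.74, 4.89 and 6.08 CPM in KO. All KO livers were above all controls, and the KO mean was 244% of the control mean (log2 fold change 1.29, SE 0.2, adjusted p = 0.000325). Mcm6 was at 3.38 to 4.33 CPM in controls, at 3.52 CPM in KO 1 and at 7.83, 8.72 and 9.03 CPM in KO 2 to 4. KO 1 therefore lay within the control range and the other KO livers well above it (log2 fold change 0.9, SE 0.214, adjusted p = 0.0056). In Mcm3 too, KO 1 (4.3 CPM) lay within the control range of 2.96 to 4.38 CPM, while KO 2 to 4 were at 5.77, 7.04 and 6.08 CPM (log2 fold change 0.65, adjusted p = 0.00758). Mcm4 was at 4.46, 5.07 and 5.16 CPM in the WT Cre control, 3.95, 4.51 and 5.81 CPM in the MCS control and 4.1, 5.85, 4.72 and 5.24 CPM in KO. The groups overlapped almost fully, and the difference did not pass the test (log2 fold change 0.0509, SE 0.152, adjusted p = 0.827).

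Mcm2 differed between the controls themselves. It was at 5.13, 4.99 and 4.92 CPM in the WT Cre control, at 2.36, 2.37 and 2.01 CPM in the MCS control and at 4.5, 7.0, 6.91 and 7.11 CPM in KO. The WT Cre livers were thus all above the MCS livers, and KO 1 was below the WT Cre livers. Mcm2 rose against the pooled controls (log2 fold change 0.81, SE 0.284, adjusted p = 0.0398) and against the MCS control (1.51, SE 0.193, adjusted p = 0.000162), while the difference from the WT Cre control did not pass (0.35, SE 0.18, adjusted p = 0.163). The pooled call was lost on leaving out any 1 MCS liver or any 1 of KO 2 to 4, with adjusted p of 0.0579 to 0.0999. Mcm7 went the other way from its partners. It was at 15.6, 15.6 and 17.5 CPM in the WT Cre control, 17.5, 16.8 and 14.8 CPM in the MCS control and 11.2, 14.6, 14.2 and 13.5 CPM in KO, every KO liver being below every control. The change was small (log2 fold change -0.29, SE 0.103, adjusted p = 0.0435), and the call was lost on leaving out any 1 liver except MCS 3 (adjusted p up to 0.091). With libraries scaled by size alone its fold change was -0.11. Exons of Mcm7 share bases with Mir25 (84) and Mir93 (88) on the same strand, and with Ap4m1 (321) and Cops6 (64) on the other.

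Among the 6 genes that turn a loaded ring into a running helicase, 1 rose, 1 fell and 4 did not pass the test. Gins2 and Gins1 encode partners in the same 4-subunit GINS complex and moved in opposite directions. Gins2 was at 0.417, 0.651 and 0.556 CPM in the WT Cre control, 0.488, 0.446 and 0.447 CPM in the MCS control and 0.652, 1.66, 1.56 and 1.22 CPM in KO. KO 1 lay level with the highest control and the other KO livers above all of them (log2 fold change 1.36, SE 0.271, adjusted p = 0.00177). Gins1 was at 1.92, 2.34 and 1.91 CPM in the WT Cre control, 3.3, 3.62 and 3.24 CPM in the MCS control and 1.89, 1.19, 1.39 and 0.994 CPM in KO. Every KO liver was below every control, KO 1 only just (log2 fold change -1.01, SE 0.259, adjusted p = 0.00829). The other GINS subunits did not pass the test against the pooled controls: Gins3 had a log2 fold change of 0.48 (adjusted p = 0.248) and Gins4 of -0.31 (adjusted p = 0.069). Gins3 passed against the MCS control (0.98, SE 0.316, adjusted p = 0.0325), where every KO liver lay above every MCS liver. It did not pass against the WT Cre control (0.11, adjusted p = 0.811). Gins4 passed without KO 1, at -0.47 (adjusted p = 0.00198), and with limma voom (adjusted p = 0.0378).

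Mcm10, a scaffold that joins the helicase to polymerase alpha, had the highest level of the set in both groups. Per length, it stood at a median of 41.1 FPKM in controls and 25 FPKM in KO, beside 17.1 and 22.2 FPKM for Pcna. It was at 73.2, 72.1 and 58.6 CPM in the WT Cre control, 103, 203 and 81.0 CPM in the MCS control and 70.6, 48.5, 35.7 and 29.1 CPM in KO. KO 2 to 4 lay below all controls, KO 1 lay among the WT Cre livers, and MCS 2 stood far above the rest. The difference did not pass the test (log2 fold change -1.1, SE 0.393, adjusted p = 0.0527). It passed without WT Cre 3 (adjusted p = 0.0377), without MCS 2 (-0.76, adjusted p = 0.0412) and without KO 1 (-1.38, adjusted p = 0.033). With all livers kept, Mcm10 passed with DESeq2 (-1.07, adjusted p = 0.00776), after edgeR's filterByExpr (adjusted p = 0.0366), with limma voom (adjusted p = 0.0391) and with limma on log2(FPKM + 1) and log2(FPKM + 0.1) (adjusted p = 0.0466 and 0.0454). Cdc45, the factor that binds the MCM ring together with GINS, was at 1.21, 0.737 and 0.913 CPM in the WT Cre control, 1.42, 0.938 and 1.62 CPM in the MCS control and 1.11, 1.23, 0.632 and 1.42 CPM in KO. The groups overlapped fully (log2 fold change -0.0476, SE 0.283, adjusted p = 0.914).

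**Figure D2:**
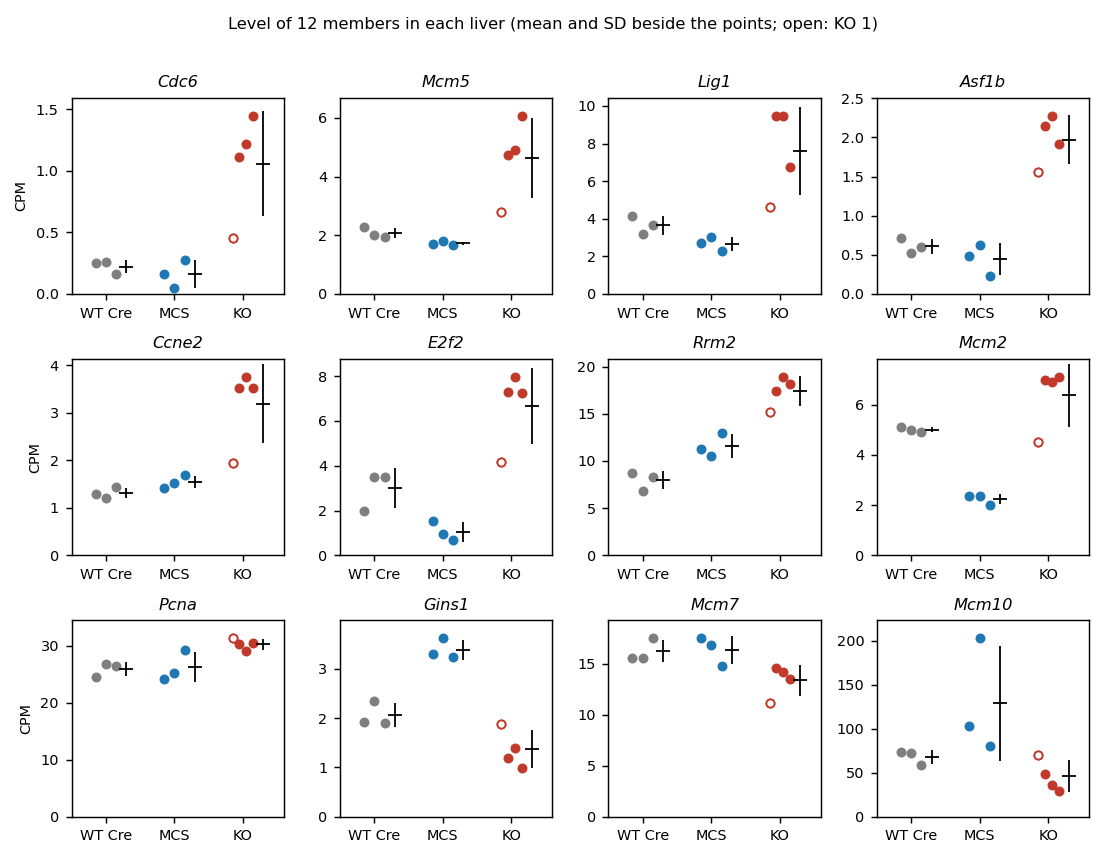
CPM (y axis, from 0) of 12 of the genes in each liver of the WT Cre control, MCS control and KO groups (x axis), with the mean and SD of each group beside its points and KO 1 as an open circle. Mcm2, Rrm2, E2f2 and Gins1 stand at different levels in the 2 control groups, and MCS 2 holds the 203 CPM value of Mcm10.

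Of the 6 listed subunits of polymerase alpha with primase and of polymerase epsilon, 1 rose and 5 did not pass the test. Pole2, the second subunit of the leading-strand polymerase, was at 0.333, 0.39 and 0.357 CPM in the WT Cre control, 0.407, 0.446 and 0.559 CPM in the MCS control and 0.847, 0.672, 0.632 and 0.765 CPM in KO. All KO livers lay above all controls, and KO 1 was here the highest (log2 fold change 0.81, SE 0.243, adjusted p = 0.0197). The counts were 8 to 10 per control liver and 13 to 20 per KO liver. Pola1, the catalytic subunit of polymerase alpha, was at 2.67, 3.34 and 2.62 CPM in the WT Cre control, 1.47, 3.08 and 3.24 CPM in the MCS control and 2.35, 3.2, 2.99 and 3.02 CPM in KO. Its groups overlapped (log2 fold change 0.0889, SE 0.217, adjusted p = 0.786). Pola2 (-0.16), the primase subunits Prim1 (-0.34) and Prim2 (0.24) and the catalytic subunit Pole (0.0907) had log2 fold changes with adjusted p of 0.135 to 0.795.

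The PCNA clamp, its loader and the enzymes that finish the lagging strand make up 7 of the genes, of which 2 rose and 5 did not pass the test. Lig1, the ligase of the lagging strand, was at 4.17, 3.17 and 3.65 CPM in the WT Cre control, 2.69, 3.04 and 2.29 CPM in the MCS control and 4.63, 9.49, 9.48 and 6.77 CPM in KO. All KO livers were above all controls, KO 1 by the least (log2 fold change 1.26, SE 0.216, adjusted p = 0.00063). Fen1, the flap endonuclease, was at 0.5 to 0.954 CPM in controls, 0.521 CPM in KO 1 and 1.42 to 1.57 CPM in KO 2 to 4 (log2 fold change 0.82, adjusted p = 0.0482). The call on Fen1 was lost on leaving out any 1 of 8 livers (all but WT Cre 2 and KO 1), with adjusted p of 0.054 to 0.132. Pcna, the sliding clamp, was at 24.5, 26.8 and 26.4 CPM in the WT Cre control, 24.2, 25.3 and 29.3 CPM in the MCS control and 31.3, 30.3, 29.0 and 30.4 CPM in KO. Only MCS 3 reached into the KO range, and the KO mean, 116% of the control mean, did not differ from it past the threshold (log2 fold change 0.21, SE 0.0825, adjusted p = 0.0586). Without MCS 3 it passed, at 0.25 (adjusted p = 0.0259). With all livers kept, Pcna passed with DESeq2 (adjusted p = 0.023), with library size scaling (0.39, adjusted p = 0.00386), after filterByExpr (adjusted p = 0.0232) and with limma on both FPKM scales (adjusted p = 0.00484 and 0.00494).

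The 4 subunits of the clamp loader did not pass the test. Rfc5 was at 9.3, 9.72 and 9.96 CPM in the WT Cre control, 10.1, 10.6 and 8.66 CPM in the MCS control and 11.3, 11.1, 10.7 and 7.92 CPM in KO, with KO 4 below all controls and the others above them (log2 fold change 0.0756, SE 0.121, adjusted p = 0.67). Rfc3 had 2.41 CPM in KO 4 against 5.73 to 6.05 CPM in the other KO livers (log2 fold change -0.34, adjusted p = 0.256). Rfc2 (0.12, adjusted p = 0.267) and Rfc4 (0.36, adjusted p = 0.0891) completed the group. With library size scaling both passed (adjusted p = 0.0321 and 0.022), and Rfc4 did so after filterByExpr (adjusted p = 0.0467) and with limma on both FPKM scales (adjusted p = 0.0366 and 0.0383).

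RPA coats single-stranded DNA at the fork. Of its 2 subunits listed, Rpa2 fell: it was at 6.04, 6.94 and 5.48 CPM in the WT Cre control, 6.64, 5.94 and 4.75 CPM in the MCS control and 5.21, 3.95, 4.3 and 4.67 CPM in KO. Only KO 1 overlapped with the controls (log2 fold change -0.4, SE 0.145, adjusted p = 0.0447). The call was lost on leaving out any 1 liver except MCS 3 and KO 1 (adjusted p up to 0.15), and with libraries scaled by size alone (-0.23, adjusted p = 0.305). Rpa1, the large subunit, was at 28.2, 31.6 and 28.9 CPM in the WT Cre control, 28.5, 28.7 and 30.0 CPM in the MCS control and 35.3, 31.1, 32.1 and 24.6 CPM in KO (log2 fold change 0.0696, SE 0.0999, adjusted p = 0.63).

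Of 4 genes that supply nucleotides, 1 rose. Rrm2, the subunit of ribonucleotide reductase that is made in S phase, was at 8.71, 6.85 and 8.34 CPM in the WT Cre control, 11.3, 10.5 and 13.0 CPM in the MCS control and 15.2, 17.4, 18.9 and 18.2 CPM in KO. The KO livers were above both controls, and the MCS livers above the WT Cre livers (log2 fold change 0.84 against the pooled controls, SE 0.157, adjusted p = 0.00121). Its partner Rrm1 was at 12.1 to 13.3 CPM in KO and 9.5 to 12.9 CPM in controls and did not pass (0.17, adjusted p = 0.231). Tk1, the thymidine kinase of cycling cells, was at 16.5, 13.4 and 12.7 CPM in the WT Cre control, 23.3, 19.3 and 12 CPM in the MCS control and 16.7, 20.1, 17.4 and 11.5 CPM in KO. The KO range lay nearly within the control range (0.0191, SE 0.203, adjusted p = 0.954). Tyms, thymidylate synthase, had a log2 fold change of -0.14 (adjusted p = 0.463).

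Of the 4 cyclin E and E2F genes, 2 rose, and the members of each pair differed. Ccne2 was at 1.29, 1.21 and 1.43 CPM in the WT Cre control, 1.42, 1.52 and 1.68 CPM in the MCS control and 1.95, 3.52, 3.75 and 3.52 CPM in KO. All KO livers were above all controls, KO 1 by the least (log2 fold change 1.17, SE 0.2, adjusted p = 0.000628). Ccne1 was at 0.667, 0.26 and 0.873 CPM in the WT Cre control, 0.651, 0.313 and 2.68 CPM in the MCS control and 0.977, 1.82, 2.19 and 1.8 CPM in KO. Every KO liver lay above the other 5 controls, but MCS 3 held the highest value of all (log2 fold change 0.96, SE 0.535, adjusted p = 0.19). Without MCS 3 the fold change of Ccne1 was 1.61 and passed (adjusted p = 0.00355), and with all livers it passed with limma voom (adjusted p = 0.0357) and with limma on both FPKM scales (adjusted p = 0.0304 and 0.0348). E2f2 was at 1.96, 3.51 and 3.49 CPM in the WT Cre control, 1.55, 0.938 and 0.671 CPM in the MCS control and 4.17, 7.28, 7.96 and 7.23 CPM in KO. The KO livers were above all controls, while the MCS livers were below the WT Cre livers (log2 fold change 1.71, SE 0.402, adjusted p = 0.0066). E2f1 was at 4.21, 4.25 and 4.6 CPM in the WT Cre control, 3.75, 3.57 and 2.63 CPM in the MCS control and 3.0, 3.36, 3.12 and 3.29 CPM in KO. Its KO livers were below the WT Cre livers and within the MCS range, and the pooled difference did not pass (-0.27, SE 0.169, adjusted p = 0.246).

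Of the 4 genes that supply histones to new DNA, 1 rose. Asf1b, the ASF1 paralog made in cycling cells, was at 0.709, 0.52 and 0.595 CPM in the WT Cre control, 0.488, 0.63 and 0.224 CPM in the MCS control and 1.56, 2.14, 2.28 and 1.91 CPM in KO. All KO livers were more than double any control (KO mean 374% of the control mean, log2 fold change 1.88, SE 0.254, adjusted p = 0.000114). Chaf1a, the large subunit of CAF-1, was at 2.71, 2.86 and 2.82 CPM in the WT Cre control, 2.04, 2.81 and 2.51 CPM in the MCS control and 2.41, 2.61, 2.95 and 2.6 CPM in KO (log2 fold change 0.0118, SE 0.159, adjusted p = 0.964). Chaf1b, the middle subunit, was at 0.912 to 2.45 CPM in KO and 0.792 to 2.18 CPM in controls (0.53, adjusted p = 0.212). Without MCS 3, its fold change was 0.77 (adjusted p = 0.0446). Slbp, the protein that binds the stem-loop of replication-dependent histone mRNA, was at 12.1 to 15.3 CPM in KO and 10.3 to 12.8 CPM in controls (0.23, adjusted p = 0.102), and passed without KO 1 (0.29, adjusted p = 0.034). Slbp also passed with DESeq2 (adjusted p = 0.0482), with library size scaling (adjusted p = 0.0274) and after filterByExpr (adjusted p = 0.0479).

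Levels of different genes were compared per length. The 13 genes that rose and have FPKM values had a median of 0.52 FPKM in controls (0.0543 to 3.46 FPKM), and the 25 that did not pass had a median of 2.52 FPKM (0.263 to 41.1 FPKM). The control livers enter both the level and the fold change, so this is a description. Cdt1 and Gins2 are blank in the FPKM table in all livers. For 17 of the 43 genes, exons share bases with another gene, among them 6 of the 15 that rose (Orc1, Gins2, Pole2, Fen1, Lig1 and Ccne2). The libraries were directional, but the strand setting of the counting is not given in the sources used here, and whether reads of such partners were kept apart was not tested. The largest shared parts among genes that rose were 2758 of 4097 exonic bases in Gins2 and 1909 of 2422 in Fen1.

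Each control group answers a different question, since WT Cre shares the virus and Cre with the KO mice, and MCS shares their floxed alleles. Both comparisons use the same KO livers. Against the WT Cre control, 12 of the 43 genes were higher and 0 were lower by edgeR, against 15.3% and 13.1% of all genes. At an unadjusted p under 0.05, 5 were lower (18.9% of all genes), limma voom called 1 lower (14.3% of all genes) and DESeq2 called 0 (13.6% of the genes it gave an adjusted p). Of the 12, 10 also had a log2 fold change over 1 (10.6% of all genes higher and 5.33% lower past both thresholds). Against the MCS control, 12 were higher and 2 were lower, against 17.3% and 14.8% of all genes. The 2 lower were Gins1 (log2 fold change -1.33, adjusted p = 0.00102) and Mcm10 (-1.49, SE 0.36, adjusted p = 0.012), whose fold changes against the WT Cre control were -0.61 (adjusted p = 0.068) and -0.57 (adjusted p = 0.278). Past both thresholds, 8 were higher and 2 lower against the MCS control (11.9% and 5.54% of all genes). Cdt1, Fen1, Mcm7 and Rpa2, which passed against the pooled controls, passed against neither control group alone. Their adjusted p against the WT Cre control were 0.0738, 0.145, 0.105 and 0.0682, and against the MCS control 0.13, 0.0939, 0.0897 and 0.131. Orc1 and Pole2 passed against the WT Cre control (adjusted p = 0.0077 and 0.0224) but not against the MCS control (0.0621 and 0.112). All KO livers lay above all WT Cre livers in 13 genes and below them in 6 (17.4% and 18.5% of all genes), and above all MCS livers in 16 and below them in 3 (17.7% and 17.8% of all genes).

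The difference between the controls is also the test of whether the fold changes against them differ, as the KO livers are shared. Of the 43 genes, 1 was higher in the WT Cre control than in the MCS control and 0 were lower by edgeR, against 0.441% and 0.486% of all genes. The gene was Mcm2 (log2 fold change 1.15, SE 0.202, adjusted p = 0.0183), which was past both thresholds (0.298% of all genes higher and 0.343% lower). At an unadjusted p under 0.05, 3 genes were higher and 3 were lower (5.51% and 5.17% of all genes), and DESeq2 called 2 higher and 1 lower (1.98% and 2.12% of the genes it gave an adjusted p). The call on Mcm2 was lost on leaving out any 1 control liver. In 9 genes every WT Cre liver lay above every MCS liver (11% of all genes) and in 6 every one lay below (11.2% of all genes), E2f2 being among the former (1.48, SE 0.35, adjusted p = 0.0816) and Gins1 (-0.72, adjusted p = 0.243) and Rrm2 (-0.54, adjusted p = 0.122) among the latter.

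**Figure D3:**
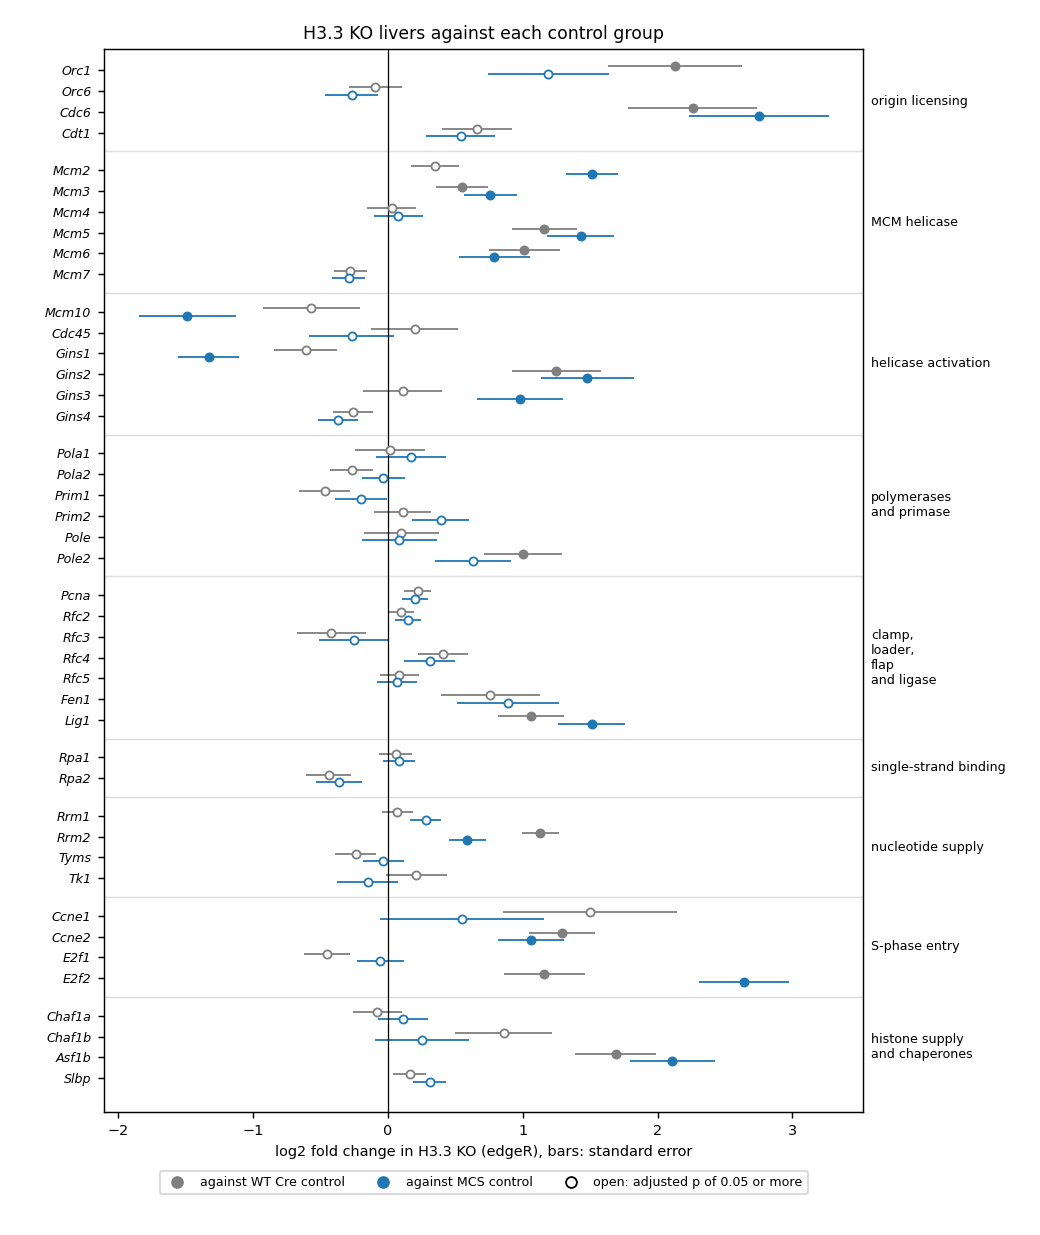
Log2 fold change with its standard error (x axis) of each of the 43 genes in KO against the WT Cre control (grey) and against the MCS control (blue), filled where the adjusted p was under 0.05. For Mcm2 the pair stands at 0.35 and 1.51 and for E2f2 at 1.16 and 2.64.

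The mean level of the 43 genes in each liver, on the log2 scale with the mean of the 6 controls set to 0, ran from -0.0689 to 0.0558 in the controls. It was 0.16 in KO 1, 0.47 in KO 2, 0.48 in KO 3 and 0.37 in KO 4 (mean 0.37, SD 0.15, n = 4). All 4 KO livers were above all 6 controls, with KO 1 between them and the other KO livers. By role, the mean over the KO livers was 0.97 for cyclin E and E2F genes, 0.87 for licensing genes, 0.62 for histone supply and 0.54 for the MCM ring, where KO 1 (0.0466) lay within the controls. It was 0.32 for the clamp, loader, flap and ligase genes, 0.23 for nucleotide supply, 0.0965 for polymerases and primase, -0.11 for helicase activation and -0.16 for RPA. KO and control livers overlapped in these last 4 groups but not in the clamp group. Every member weighs the same in these means, whatever its level. Summed as CPM, the 43 genes stood at 313 to 454 CPM in controls and 341, 347, 341 and 302 CPM in KO, so the groups overlapped. Without Mcm10, the sums were 239 to 256 CPM in controls and 270 to 305 CPM in KO.

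RNA markers of some cell types other than hepatocytes also stood higher in KO livers, while summed markers of others overlapped with the controls. In bulk samples, fewer cells of a type and less RNA per cell cannot be told apart. Over all genes tested, 19.7% were higher and 16.6% were lower against the pooled controls. All 12 Kupffer cell and macrophage markers rose, with a summed level of 285 to 542 CPM in controls and 664, 1040, 1090 and 1440 CPM in KO. Of 10 T and NK cell markers, 9 rose (4.38 to 7.86 CPM in controls, then 8.47, 35.5, 20.4 and 32.9 CPM in KO), and of 7 B and plasma cell markers, 4 rose (4.69 to 12 CPM, then 8.6, 424, 333 and 213 CPM). KO 1 was thus at or near the control range in the summed lymphocyte markers. Of 9 stellate cell markers, 8 rose (216 to 276 CPM, then 492, 550, 541 and 786 CPM), while 2 of 8 endothelial markers rose (220 to 278 CPM, then 242, 295, 302 and 424 CPM) and 1 of 6 cholangiocyte markers did (40.7 to 61.9 CPM, then 73.8, 53.6, 69.4 and 65.2 CPM). Of 7 neutrophil markers, 4 were tested and 2 of them, S100a8 and S100a9, rose (1.74 to 7.1 CPM, then 3.39, 13.8, 9.19 and 6.85 CPM). Elane (log2 fold change -1.35, adjusted p = 0.313) and Ngp (0.72, adjusted p = 0.469) did not pass. Ly6g, Mpo and Camp had too few counts to be tested, and they and Ngp had at most 3 counts in any liver. None of 7 erythroid markers passed (149 to 343 CPM, then 255, 229, 92.0 and 90.9 CPM). Of 10 hepatocyte markers 7 fell against the pooled controls, 2 against the WT Cre control (median log2 fold change -0.4) and 8 against the MCS control (median -0.94), with a summed level of 108000 to 152000 CPM in controls and 95200, 93900, 87000 and 83200 CPM in KO. The part of these cell types in the levels of the replication genes was not tested.

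**Figure D4:**
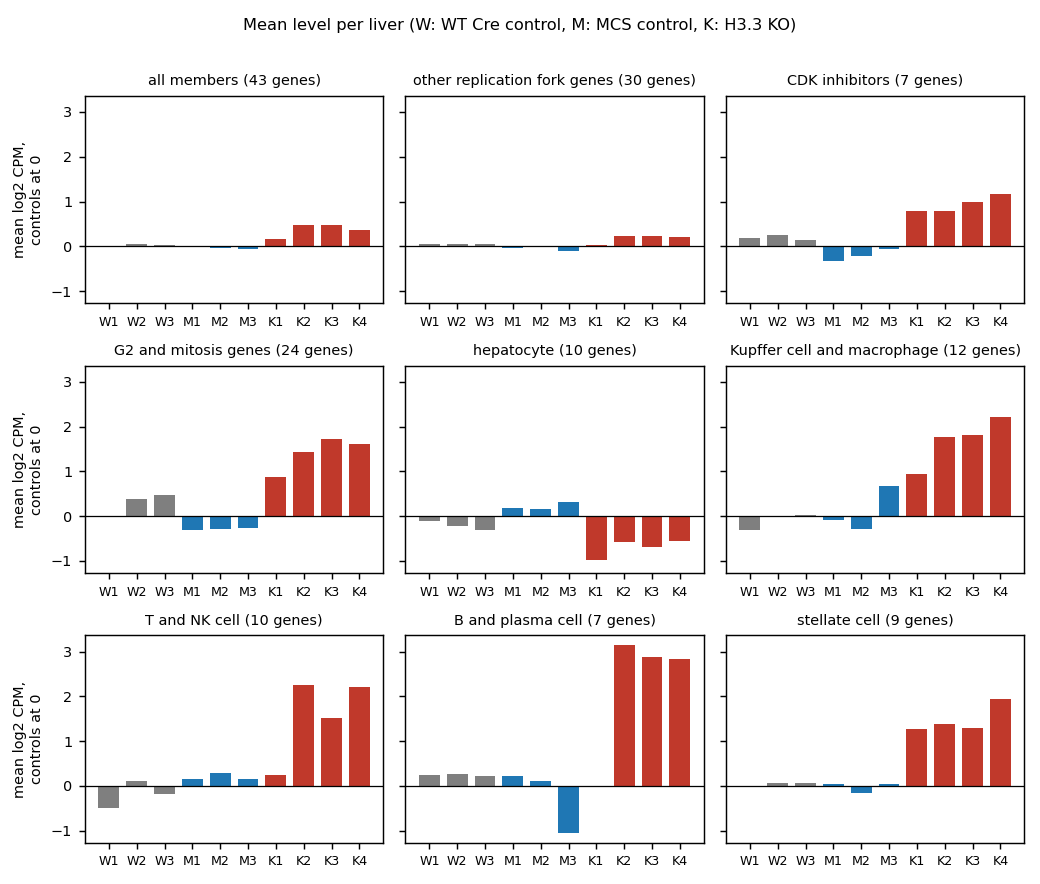
Mean log2 CPM of 9 gene lists in each liver (y axis, mean of the 6 controls at 0), for WT Cre control (W), MCS control (M) and KO (K) livers. The 43 replication genes reach 0.48 at most, the G2 and mitosis genes 1.72, and B and plasma cell markers are near 0 in KO 1 but near 3 in KO 2 to 4.

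Other genes of the same pathways were counted in lists drawn up by function. Of 30 further genes of the fork and its checkpoint, 7 rose (23.3%) and 5 fell, beside the 19.7% and 16.6% of all genes, with a median log2 fold change of 0.1. Clspn, the adaptor of the replication checkpoint, was at 0.0893 to 0.238 CPM in controls and at 0.717, 1.19, 0.843 and 1.84 CPM in KO (log2 fold change 2.64, SE 0.337, adjusted p = 7.92e-05). Cdc7, the kinase that fires licensed origins, had a fold change of 1.44 (adjusted p = 0.00408), with KO 1 (0.326 CPM) among the controls (0.304 to 0.446 CPM). Pold2, a subunit of the lagging-strand polymerase delta, was at 10.1 to 13.5 CPM in controls and 3.67 to 6.19 CPM in KO (-1.12, SE 0.159, adjusted p = 0.000167), and the nuclease and helicase Dna2 also fell (-0.91, adjusted p = 0.000975). Of 9 further genes of nucleotide supply, 2 rose (22.2%) and 4 fell, beside the same 19.7% and 16.6% of all genes (median -0.3). Shmt1, a folate enzyme that links serine and glycine, fell (-0.8, adjusted p = 0.00755). Samhd1, which breaks down deoxynucleotides, rose (1.02, adjusted p = 0.00068), as did the deoxycytidine kinase Dck (0.53, adjusted p = 0.0181).

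Of 8 cyclin and kinase genes of the G1 to S passage, 3 rose (37.5%) and 0 fell, beside 19.7% and 16.6% of all genes. Ccna2, the cyclin of S phase and G2, was at 0.936 to 2.13 CPM in controls and 3.0 to 4.98 CPM in KO (log2 fold change 1.44, SE 0.235, adjusted p = 0.000449), and the D-type cyclin Ccnd2 rose by 1.16 (adjusted p = 0.0148). Inhibitors of these kinases rose too: 5 of 7 did so (71.4%) and 0 fell. Against either control group alone, 3 of the 7 were higher. Of all genes, 15.3% were higher against the WT Cre control and 17.3% against the MCS control. Cdkn1c was at 0.782 to 1.67 CPM in controls and 4.36 to 6.17 CPM in KO (1.86, SE 0.207, adjusted p = 2.95e-05), and Cdkn2c rose by 0.89 (adjusted p = 0.00358). Cdkn1a, which encodes p21 and was picked out after its values were seen, was at 39.3, 70.0 and 55.1 CPM in the WT Cre control, 25.7, 18.4 and 118 CPM in the MCS control and 131, 141, 161 and 146 CPM in KO (1.41, adjusted p = 0.0363). MCS 3, whose Ccne1 was high, also held the highest Cdkn1a of the controls. Of 11 pocket protein and further E2F and DP genes, 3 rose (27.3%, beside 19.7% of all genes) and 2 fell (median -0.12). Rbl1 stood at 1.14 (adjusted p = 0.00143) and E2f3 at 0.56 (adjusted p = 0.00589). Rbl2 stood at -0.41 (adjusted p = 0.00759) and Tfdp1 at -0.45 (adjusted p = 0.0101).

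Of 10 further chromatin and ubiquitin genes of S phase, 3 rose (30%) and 1 fell, beside 19.7% and 16.6% of all genes. Uhrf1, which brings DNA methyltransferase to newly copied DNA, was at 0.564 to 0.692 CPM in controls and 1.69, 2.85, 3.62 and 4.9 CPM in KO (log2 fold change 2.39, SE 0.26, adjusted p = 2.57e-05). Dtl, whose product marks CDT1 for destruction, rose by 1.49 (adjusted p = 0.000259), and Rbbp4, a subunit shared by CAF-1 and other complexes, fell from 108 to 128 CPM in controls to 77.6 to 83.4 CPM in KO (-0.54, adjusted p = 0.000389). Of 24 G2 and mitosis genes, 22 rose (91.7%, beside 19.7% of all genes) and 0 fell, with a median of 1.47. Against the WT Cre control 19 rose, with a median of 1.19, beside 15.3% of all genes. Against the MCS control 23 rose, with a median of 2.02, beside 17.3% of all genes. The fold change of WT Cre over MCS was positive in 22 of the 24 (median 0.71), and 0 passed the test. Kif23, a motor of cytokinesis, was at 0.407 to 0.848 CPM in controls and 2.22 to 3.06 CPM in KO (2.0, SE 0.213, adjusted p = 2.2e-05), and Cenpa, the histone H3 variant of centromeres, at 3.8 to 5.51 CPM and 8.34 to 13.7 CPM (1.31, adjusted p = 5.04e-05). The mean level of this list was -0.31 to 0.48 in controls and 0.88 to 1.72 in KO, so KO 1 was above all controls here.

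Of 25 replication-dependent H3 and H4 genes, 15 had enough counts to be tested. Of these, 4 rose (26.7%) and 0 fell, beside 19.7% and 16.6% of all genes. Hist1h4h was at 0.694 to 1.84 CPM in controls and 1.76 to 2.65 CPM in KO (log2 fold change 0.96, adjusted p = 0.011). Hist1h4n, with the next smallest p, had 0 or 1 count per control liver and 1, 1, 6 and 9 counts in KO. Hist1h3h, Hist2h3b and Hist2h3c1 had no count in any liver. Transcripts of these genes mostly lack a poly(A) tail, so libraries made from poly(A) RNA hold few of them.

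The promoter words differed between the lists as well. CHR words (TTTGAA and TTCGAA), known from genes of G2 and mitosis, were in 8 of the 40 promoters of replication genes, 19.2% of all promoters and 81.0% of 21 promoters of the G2 and mitosis genes. The CCAAT box, the word CCAAT, was in 24 of the 40, 37.4% and 90.5%. The E2F words, by contrast, were in 4.76% of the G2 and mitosis promoters. In the 150 bases nearest the start (100 before and 50 after), E2F words were in 10 of the 40 promoters of replication genes and 1.27% of all promoters.

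**Figure D5:**
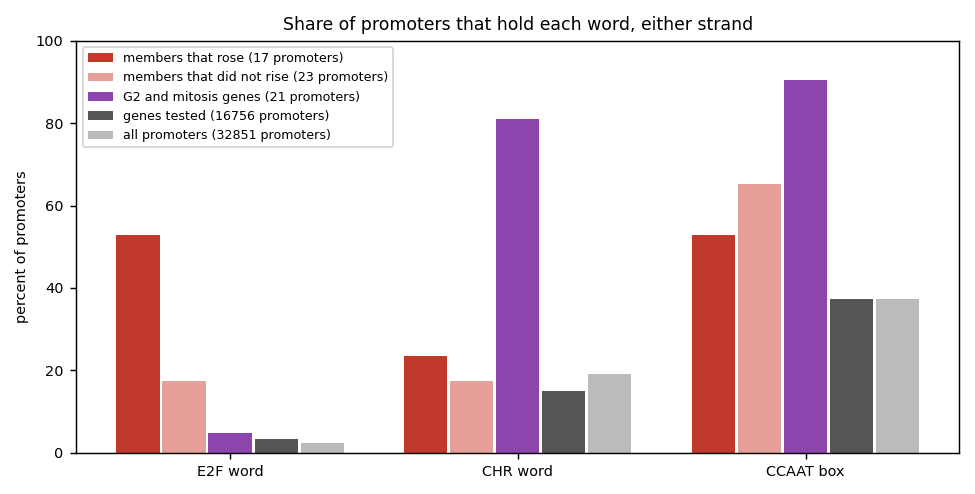
Percent of promoters (y axis) that hold an E2F word, a CHR word or a CCAAT box on either strand, for replication genes that rose (17 promoters), replication genes that did not (23), G2 and mitosis genes (21), genes tested and all promoters. E2F words are in 52.9% of the first set and 17.4% of the second, and CHR words in 81.0% of the third.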

How the data were processed

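Poly(A) RNA of 10 livers was sequenced from directional libraries. The authors aligned the reads to mm10 with STAR and counted them per gene; their methods name HOMER for counting and the labels list HTSeq and Cufflinks without a role. The deposited counts are raw whole-number counts per gene. The deposited FPKM values are scaled by transcript length and library size, by a tool not given in the sources used here. All sample columns of both tables were matched to samples, the controls by library number only.

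Genes with at least 10 counts over all livers were tested with edgeR 4.0.16 in R 4.3.3 (TMM, quasi-likelihood test, robust, Benjamini-Hochberg over all genes tested). The comparison with all controls together came from a model with 2 groups and the rest from one with 3. Total counts were 14998426 to 26096141 per liver, and lower counts give wider errors. Mean levels per liver used log2 CPM with a prior count of 2. Alternatives were DESeq2 1.42.0, scaling by library size, other filters, limma 3.58.1 voom, and limma on log2(FPKM + 1) and log2(FPKM + 0.1). Others were leaving out each liver and the replicate number as a block, which left out KO 4. Python 3.11.15 was used for counts, promoters and figures. The pipeline was tested on simulated data.

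The genes and lists were chosen with earlier results of these data known. Values in every liver are given for 8 fixed genes and for the largest and smallest fold change in each role, as well as for Mcm7, Mcm10 and Gins1, which were added after their values were seen. Of other lists, up to 2 genes that rose and 2 that fell, by smallest p, are named. A gene that this rule names is not reported here. Nothing in the labels says how the animals were housed or grouped. Each p-value sets a group difference against the spread between these livers, as estimated with the help of all genes.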

Additional observations from a re-analysis of the deposited data

Results flagged for a closer look

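A single liver stood far from the others of its group (Dixon's test at 95%) in 10 of 86 groups of values, where chance gives about 1 in 20. In the KO group, KO 1 was far below the other livers for Mcm2 (4.5 CPM), Fen1 (0.521 CPM) and Ccne2 (1.95 CPM), and KO 4 was far below them for Rfc3 (2.41 CPM) and Rfc5 (7.92 CPM). Among the 6 controls, MCS 3 was high for Ccne1 (2.68 CPM) and Chaf1b (2.18 CPM) and low for Pola2 (5.98 CPM). MCS 2 was high for Mcm10 (203 CPM) and WT Cre 2 for Rfc2 (19.6 CPM).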

How the results depend on the processing

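Genes with few counts and changes near the threshold depend most on the settings. Of the fold changes of single genes against the pooled controls under all alternatives, 655 kept their direction and side of the threshold, 58 lost and 30 gained significance, and 26 changed sign, among which only Orc1 was a called gene. The cause was not tested. The number higher against the pooled controls, 15, was 11 to 19 throughout. It was lowest with the replicate number as a block, where 16% of all genes were higher, and highest with library size scaling (25.1%). The number lower, 3, was 1 with library size scaling (9.68% of all genes lower), 1 without a filter (9.27%) and 5 with limma voom (17.2%). With a liver left out it ran from 1, as without KO 3 (12.5%), to 4 without KO 1 (18.9%). The number past both thresholds, 9, was 0 on log2(FPKM + 1) and 8 to 12 with a liver left out. Adding 1 shrinks the fold change of a gene at low FPKM, and the genes that rose had a control median of 0.52 FPKM. Counts past both thresholds on log2(FPKM + 1), here and below, therefore cannot be set beside the others. Against the WT Cre control, 12 higher (15.3% of all genes) became 7 on log2(FPKM + 0.1) (13.7%). With a liver left out it became 7 to 16, the lowest without WT Cre 1 (10.7%) and the highest without KO 1 (19.5%). The number lower, 0, became 1 with limma voom (14.3%) and 0 to 3 with a liver left out, the highest without KO 1 (17.4%). The 10 past both thresholds became 1 on log2(FPKM + 1) and 5 on log2(FPKM + 0.1). Against the MCS control, 12 higher became 22 with library size scaling, where 24.9% of all genes were higher, and 10 past both thresholds became 1 on log2(FPKM + 1). Between the controls, 1 higher became 2 with DESeq2 (1.98%) and 2 without a filter (0.486%). It became 0 on log2(FPKM + 1) (0.592%) and on log2(FPKM + 0.1) (0.619%). With a liver left out it became 0 to 2, the highest without KO 1 (1.13%). The number lower, 0, became 1 with DESeq2 (2.12%). Past both thresholds, 1 became 2, 2, 0 and 0 in the order of these 4 settings, and 0 to 2 with a liver left out. Shares of all genes past both thresholds were not counted under the alternatives. The mean level of 0.37 became 0.54 with library size scaling. Cdt1 and Gins2 are blank as FPKM and have no value there, and Orc1 did not pass edgeR's filterByExpr.

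Nothing in the labels ties livers of the same replicate number together. Deviations of same-numbered livers correlated at -0.0387 to 0.11, and whether they shared a batch was not tested. The fit with the replicate number as a block left out KO 4, which has no same-numbered control. In it, 11 genes were higher and 1 was lower (16% and 12.7% of all genes). Cdt1 (adjusted p = 0.201), Mcm2 (0.165), Mcm7 (0.0875), Pole2 (0.0804), Fen1 (0.191) and Rpa2 (0.0785) were not past the threshold. Leaving out KO 4 with no block gave 12 higher and 1 lower (17.2% and 14.1% of all genes). Of the genes just named, only Pole2 was past the threshold there. Besides the block, Pole2 was lost without a filter (adjusted p = 0.0609).

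Signs changed as follows on the log2 scale. With library size scaling, Cdc45 became 0.14, Pola2 0.00936 and Tyms 0.0303. On log2(FPKM + 1), Orc1 became -0.0152, Orc6 0.00907, Cdc45 0.0256, Pola2 0.0877 and Tyms 0.0295. On log2(FPKM + 0.1), Orc6 became 0.0144, Cdc45 0.0652, Pola2 0.11 and Tyms 0.0297. With 1 liver left out, fold changes crossed 0 in 7 genes that were not called, running from -0.2 to 0.16 for Cdc45, -0.0865 to 0.16 for Tk1, -0.0277 to 0.13 for Mcm4, -0.0531 to 0.0502 for Chaf1a, -0.0417 to 0.17 for Pola1, -0.00533 to 0.28 for Pole and -0.00197 to 0.16 for Rpa1.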
